A study of Mus musculus with 4 samples.

Results

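Processed pseudogenes of nuclear genes were followed in RNA from isolated mitochondria and from the remaining tissue of the mouse heart. The deposited table listed 15746 genes, of which 1043 carried the Ensembl biotype processed_pseudogene without Gm11407, Gm11408, Gm11410 and Gm11512, which were left out by rule. The 285 with a mean of at least 20 normalized counts over the 4 libraries formed the set. By name, 40 of them were copies of ribosomal protein genes (23 beginning with Rpl and 17 with Rps), and 245 had other names. Members were chosen by this mean level, and the difference between fractions was not used to choose them. A pseudogene that is high in 1 fraction reaches this mean more easily, so counts and medians over the set are a description. Of the 285, 283 reached 20 normalized counts in the mean of the mitochondrial libraries and 169 in the mean of the rest libraries. Just inside the limit, Atp6v0c-ps2, Gm16089 and Gm5776 had a mean of 20, and just outside it Gm12350, Gm15784 and Gm6767 had a mean of 19.75.

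A processed pseudogene is a copy of a spliced mRNA that was reverse transcribed and inserted into nuclear DNA, usually by the enzymes of LINE-1 elements. Such copies lack introns and most often the promoter of the gene they came from, here called the parent. Short, abundant mRNAs made in the germ line, above all those of ribosomal proteins, have left many copies in mammalian genomes. Because a copy resembles its parent closely, a sequencing read from the mRNA of the parent can also match the copy. Ribosomal proteins form the large (Rpl) and small (Rps) subunits of the cytosolic ribosome, and many mRNAs for subunits of the respiratory chain are translated close to the outer mitochondrial membrane.

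RNA came from the hearts of adult WT mice, with 2 libraries of the mitochondrial fraction and 2 of the rest fraction. For the rest fraction, the pellet of a slow spin of the homogenate was taken. Mitochondria were pelleted from the supernatant and treated with digitonin, which opens cholesterol-containing membranes, and with RNase A, and their RNA was fragmented for an adjusted time. These steps cannot be told apart from the fraction itself. The labels do not say whether libraries come from separate animals, so the p-values measure the spread between libraries, which may be technical. The values are read counts on exons that the authors scaled by library size factors and rounded, called normalized counts here. From the spacing of the values, 1 read was worth 3.87 normalized counts in replicate 1 and 2.55 in replicate 2 of the mitochondria, but approximately 0.264 and 0.365 in those of the rest fraction. The set was thus read far more thinly in mitochondria, with a median of 15 and 19 reads per pseudogene there against about 91 and 68 in the rest libraries. No more than 3 reads lay behind 7 pseudogenes in mitochondrial replicate 1 and 1 in replicate 2. The mitochondrial chromosome took between 93.53% and 97.57% of all normalized counts of mitochondria and between 63.22% and 67.51% of those of rest.

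The cells of the samples could be followed by marker sums. All 6 cardiomyocyte markers were listed, with summed values of 263874 and 195749 in mitochondria and 231973 and 204273 in rest. The 5 fibroblast markers summed to 8188 and 3440 in mitochondria and to 2175 and 3063 in rest. The 4 RNAs known to stay in the nucleus summed to 13656 and 8745 in mitochondria against 42966 and 45512 in rest. The endothelial markers summed to 1964 and 1668 in mitochondria and to 2843 and 2522 in rest, and those of smooth muscle to 1372 and 1594 against 2488 and 3038. The leukocyte markers summed to 469 and 309 against 199 and 290, and those of erythrocytes to 50 and 341 against 824 and 440. The part of these differences in the results on pseudogenes was not tested, and in bulk samples fewer cells of a type and less RNA per cell cannot be told apart.

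Each pseudogene was assigned to the protein-coding gene with the best sequence match in GENCODE M21 transcripts. A parent was found for 281 members, which share 179 parents, so members are not independent of each other. The parent may itself be a copy, as for Gm10053, a protein-coding gene whose transcript was the best match of Gm10108 and Gm13772. A ribosomal protein gene was the parent of 104 members, the 40 named Rpl or Rps and 64 with other names. Another nuclear gene was the parent of 177. The remaining 4 go against the name of the set or could not be placed. Gm4076 matched mt-Nd5 of the mitochondrial chromosome with 95.178% identity over 954 bases, and Gm50174 matched mt-Atp6 with 93.583% over 187 bases. Gm12895 and Gm12896 had no parent. Identity with the parent had a median of 99.15% and ranged from 88.69% to 100%, with 30 members at 100%. Of all 75-base windows of a member, a median of 63.79% occurred unchanged in a transcript of another gene, other pseudogenes included. In 36 members every window did, so that no read of that length inside the copy could separate it from another gene, and in 2 members none did.

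The sequences of 4 pairs show how far a read could separate a copy from its source. They are the most diverged ribosomal protein pseudogene among those named Rpl or Rps, the copy of Fabp3, a copy identical to its parent, and the copy of a mitochondrial gene. Sequences were taken from GENCODE M21 transcripts (GRCm38), 5′ to 3′, from the first base of the pseudogene, beside the coding sequence of its source. Capitals mark bases that differ from the source. Rpl19-ps9 (chr6:71683298-71683417, + strand) differed from Rpl19 at 8 of 120 bases, Fabp3-ps1 (chr10:86732269-86732388, − strand) from Fabp3 at 1 of 120, Ndufb4c (chr15:73809822-73809896, − strand) from Ndufb4 at 0 of 75, and Gm4076 (chr13:85127395-85127514, − strand) from mt-Nd5 at 6 of 120.
Rpl19-ps9: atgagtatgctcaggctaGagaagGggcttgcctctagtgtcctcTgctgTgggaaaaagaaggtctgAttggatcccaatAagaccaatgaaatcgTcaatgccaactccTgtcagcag
Rpl19: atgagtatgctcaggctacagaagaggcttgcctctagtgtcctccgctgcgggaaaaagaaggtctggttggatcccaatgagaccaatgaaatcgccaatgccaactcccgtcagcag
Fabp3-ps1: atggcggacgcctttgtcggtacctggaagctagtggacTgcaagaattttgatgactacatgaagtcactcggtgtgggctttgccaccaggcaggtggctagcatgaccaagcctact
Fabp3: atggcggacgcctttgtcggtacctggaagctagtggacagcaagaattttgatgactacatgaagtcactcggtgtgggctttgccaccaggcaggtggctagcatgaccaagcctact
Ndufb4c and Ndufb4: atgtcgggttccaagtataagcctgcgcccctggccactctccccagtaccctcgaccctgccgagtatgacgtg
Gm4076: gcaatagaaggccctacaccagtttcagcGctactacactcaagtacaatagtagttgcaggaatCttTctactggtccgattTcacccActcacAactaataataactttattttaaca
mt-Nd5: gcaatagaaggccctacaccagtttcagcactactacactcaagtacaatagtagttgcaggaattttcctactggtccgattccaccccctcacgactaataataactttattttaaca

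On the deposited scaling, most of these pseudogenes had higher normalized counts in mitochondria than in the rest fraction. Of the 284 that could be tested (Gm11400 was too low in 3 libraries), 264 had a log2 difference, mitochondria minus rest, above 0, against 43.8% of all 12150 genes tested. The median log2 difference was 1.28, a 2.43-fold higher level, beside -0.14 over all genes tested. In 223 members both mitochondrial values lay above both rest values, and in 8 both lay below, beside 27.7% and 33.4% of all genes. At an adjusted p under 0.05 (limma, log2 of the normalized count plus 1, Benjamini-Hochberg over all genes tested), 32 members were higher and 0 were lower, where 2.16% of all genes were called higher and 1.39% lower. At an unadjusted p under 0.05, 175 were higher and 2 lower. The adjusted p of the 32 lay between 0.0427 and 0.0499, close to the limit, and with a limit of 0.06 there were 71. Without any 1 of the 4 libraries limma called 0 members in either direction (between 79 and 171 higher and between 0 and 4 lower at an unadjusted p under 0.05), while between 254 and 265 were still positive. The direction is relative to the other genes. Scaled to the library total, which the mitochondrial chromosome dominates, 0 of 284 had a positive value, the median gene stood at -3.93 and 269 members lay above it. Scaled to the total without that chromosome, 207 were positive, the median gene stood at -0.98 and again 269 lay above it, with 19 called higher and 7 lower. Among the 169 members with at least 20 normalized counts in the rest mean, 149 were positive and the median was 1.07. The mean over the 4 libraries still had to be reached, so the mitochondrial level had a part in this choice too. Gm6767, with 19 and 20 in mitochondria and 16 and 24 in rest, stayed outside by that mean. The 286 tested processed pseudogenes under the limit had a median of 0.95, with 2 called higher and 1 lower.

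In sum the members took 0.608% ± 0.106 (SD, n = 2) of the normalized counts of nuclear genes in mitochondria and 0.449% ± 0.0446 (SD, n = 2) in rest. The 40 named Rpl or Rps took 0.0709% and 0.0544% in mitochondrial replicates 1 and 2 and 0.0363% and 0.0371% in rest replicates 1 and 2, with no overlap between the fractions. Without Gm4076, the other members took 0.562% and 0.409% in mitochondria and 0.435% and 0.37% in rest, and there the fractions overlapped. The smallest p of an exact two-sided permutation test with this design is 0.333, so none was made.

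All 40 pseudogenes named Rpl or Rps had a log2 difference above 0 on the deposited scaling, with a median of 1.6 (range 0.34 to 2.42). Both mitochondrial values lay above both rest values in 38, and 7 passed the adjusted limit, beside 27.7% and 2.16% of all genes tested. In the 244 others that were tested, 224 were positive, the median was 1.19 and 25 passed. Of these others, 185 had both mitochondrial values above both rest values and 8 had both below, beside 27.7% and 33.4% of all genes tested. The highest member with a ribosomal name was Rps3a3, a copy of Rps3a1, the gene of a small subunit protein. It had 232 and 222 normalized counts in mitochondria and 87 and 80 in rest, a log2 difference of 1.43 (SE 0.18, limma adjusted p = 0.0427). Rps6-ps4 is identical to Rps6, whose protein is phosphorylated by S6 kinases. Its values were 232 and 194 in mitochondria and 84 and 93 in rest (log2 difference 1.25, SE 0.20), and it missed the limit (limma adjusted p = 0.0512). Both copies were about as high as each other in every library, and in both the fractions stood apart.

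**Figure D1:**
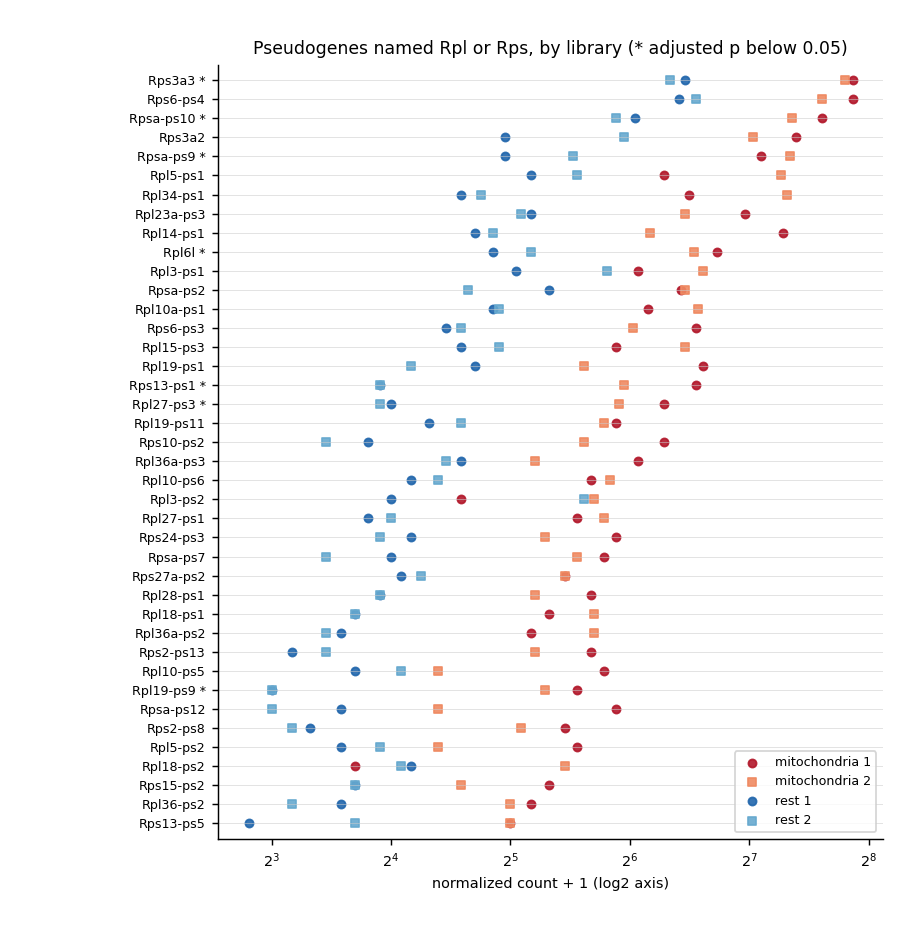
Normalized count plus 1 (log2 axis) of the 40 pseudogenes named Rpl or Rps in each library, ordered by mean, with red for mitochondria, blue for rest and a star for an adjusted p under 0.05. Apart from Rpl3-ps2 and Rpl18-ps2, both mitochondrial points lie to the right of both rest points on this scaling; scaled to library totals, 0 members are positive.

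Among copies of small subunit genes, 5 came from Rpsa, which encodes the laminin receptor homologue of the small subunit. Rpsa-ps10 was listed at 194 and 163 in mitochondria and at 65 and 58 in rest. Rpsa-ps9 was listed at 136 and 161 against 30 and 45. Both passed the limit, with log2 differences of 1.52 (SE 0.21) and 1.98 (SE 0.29) and a limma adjusted p of 0.0469 for each. Rpsa-ps2, Rpsa-ps7 and Rpsa-ps12 had log2 differences of 1.46, 1.94 and 1.85 and did not pass. Rpsa-ps12 had 58 and 20 in mitochondria against 11 and 7 in rest, so its mitochondrial libraries lay further apart than those of Rpsa-ps9. Rpsa itself had 2471 and 1990 normalized counts in mitochondria and 517 and 541 in rest, a log2 difference of 2.07 (SE 0.18). Rps13-ps1 reached 93 and 61 in mitochondria against 14 and 14 in rest, a log2 difference of 2.35 (SE 0.33, limma adjusted p = 0.0469). Over all 41 members with a small subunit parent the median log2 difference was 1.64, 8 were called, and in 39 the fractions did not overlap. Among all genes tested, 2.16% were called higher and 27.7% had both mitochondrial values above both rest values. The 18 tested parents of these 41 members had a median of 1.53.

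Copies of large subunit genes were 63, with a median of 1.53 and 7 called, beside 2.16% of all genes tested called higher. Both mitochondrial values lay above both rest values in 56 of these copies, beside 27.7% of all genes tested. Rpl19-ps9, the diverged copy shown above, shared only 3.11% of its windows with another transcript. It had 46 and 38 normalized counts in mitochondria and 7 and 7 in rest, which is 5.35-fold (log2 difference 2.42, SE 0.35, limma adjusted p = 0.0469). Rpl27-ps3, whose windows were all shared, had 77 and 59 against 15 and 14 (log2 difference 2.14, SE 0.30, limma adjusted p = 0.0469). Rpl6l had 105 and 92 against 28 and 35 (log2 difference 1.62, SE 0.25) and passed narrowly (limma adjusted p = 0.0499). Rpl34-ps1 had 89 and 158 against 23 and 26, a log2 difference of 2.23, and missed narrowly (SE 0.36, limma adjusted p = 0.0502). The other copies of Rpl34, Gm4705 and Gm10154, had 66 and 33 against 7 and 4 and 124 and 120 against 20 and 26. Gm10154 passed (log2 difference 2.37, SE 0.26, limma adjusted p = 0.0427), and Gm4705 did not (2.92, SE 0.52, limma adjusted p = 0.0561). Only Rpl18-ps2 and Rpl3-ps2, of the 40 with ribosomal names, had overlapping fractions. The values of Rpl18-ps2 were 12 and 43 in mitochondria and 17 and 16 in rest, and those of Rpl3-ps2 were 23 and 51 against 15 and 48. In both copies the mitochondrial replicates were further apart than the means of the fractions.

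The highest of the other members was Gm4076, the copy of mt-Nd5, a gene of complex I that the mitochondrial chromosome encodes. It had 2227 and 3676 normalized counts in mitochondria and 236 and 308 in rest (log2 difference 3.4, SE 0.31, limma adjusted p = 0.0427). Gm50174, the copy of mt-Atp6, had 43 and 71 against 4 and 4 (log2 difference 3.49, SE 0.43, limma adjusted p = 0.0427). Both had the largest differences of the whole set, and both belong to it by biotype only. Of the windows of Gm4076 2.13% and of Gm50174 0% occurred unchanged in another transcript, counting those of the mitochondrial chromosome.

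Fabp3-ps1 was the highest member that was a copy of neither mt-Nd5 nor Hspa8. Fabp3 encodes the fatty acid binding protein of heart and muscle. The copy had 1979 and 1923 normalized counts in mitochondria and 549 and 653 in rest, a log2 difference of 1.7 (SE 0.17, limma adjusted p = 0.0427). The parent had 7332 and 6145 in mitochondria and 2291 and 1954 in rest, a log2 difference of 1.67 (SE 0.20). Tpt1-ps3 is identical to Tpt1, which encodes the translationally controlled tumour protein. It was listed at 678 and 546 against 176 and 165 (log2 difference 1.83, SE 0.19, limma adjusted p = 0.0427). Ybx1-ps2 has 92.33% identity to Ybx1, the gene of an mRNA-binding cold shock protein. It was listed at 480 and 378 against 104 and 133 (log2 difference 1.85, SE 0.23, limma adjusted p = 0.0427). In all 3 copies the lowest mitochondrial value was more than the highest rest value, on the deposited scaling.

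Copies of genes for the respiratory chain and ATP synthase had the highest median of the groups of parents. The 18 copies had a median log2 difference of 1.82 on the deposited scaling. Of them, 6 were called and 17 had both mitochondrial values above both rest values, beside 2.16% and 27.7% of all genes tested. The 14 parents of these copies had a median of 1.69 and 8 were called. Cox6c2, a copy of the complex IV subunit gene Cox6c, had 686 and 814 normalized counts in mitochondria and 121 and 191 in rest (log2 difference 2.29, SE 0.28, limma adjusted p = 0.0427). Gm10250, a copy of the ATP synthase gene Atp5h, had 360 and 281 against 59 and 71 (2.28, SE 0.23, limma adjusted p = 0.0427). Gm10039, a copy of Atp5g1, which encodes the membrane ring subunit of ATP synthase, had 263 and 199 against 56 and 43 (2.20, SE 0.26, limma adjusted p = 0.0427). Ndufb4c and Ndufs5-ps are copies of genes for accessory subunits of complex I. Ndufb4c had 314 and 199 against 67 and 53, and Ndufs5-ps had 329 and 265 against 79 and 83. Gm12338, identical to the complex IV gene Cox7c, had 116 and 97 against 36 and 31. All 6 of these copies passed the limit. Gm12251, a copy of the complex I gene Ndufs3, had the smallest log2 difference of the 18, 0.23 (SE 0.26), with 54 and 56 against 41 and 53. Ndufs3 itself had a log2 difference of 1.22 (SE 0.22). Outside the respiratory chain but also from a gene of mitochondrial metabolism, Mpc1-ps, a copy of the gene of a subunit of the mitochondrial pyruvate carrier, had 275 and 204 against 80 and 69 (1.66, SE 0.24, limma adjusted p = 0.0469).

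**Figure D2:**
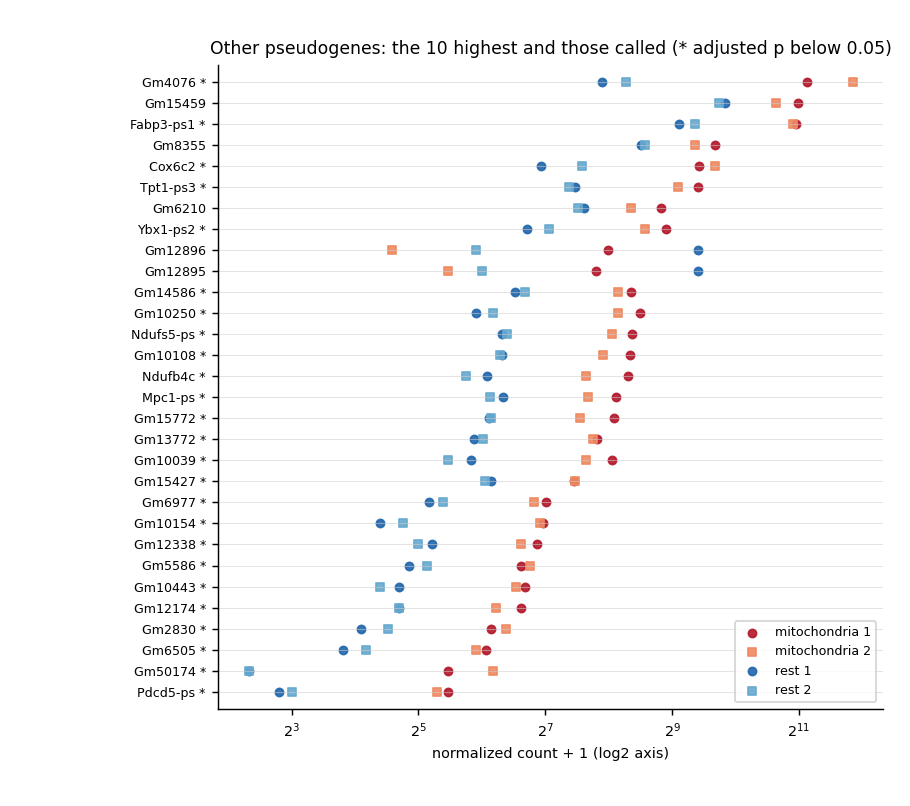
Normalized count plus 1 (log2 axis) in each library of the other pseudogenes that are among the 10 highest or passed the adjusted limit (star), with red for mitochondria and blue for rest. Gm4076 and Gm50174 show the widest gaps, and Gm12895 and Gm12896 split by replicate number rather than by fraction; the fractions are compared on the deposited scaling, under library totals 0 members are positive.

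Glycolytic genes were the source of 24 members, 16 of them copies of Gapdh. All 16 Gapdh copies were positive on the deposited scaling, between 0.56 and 1.47 with a median of 1.02, and Gapdh itself had 763 and 814 normalized counts in mitochondria and 497 and 453 in rest (log2 difference 0.73, SE 0.16). The limma test called 0 of the 16, beside 2.16% of all genes tested called higher, with 10 at an unadjusted p under 0.05. Their mean values lay between 22.0 and 52.75, and a median of 92.18% of their windows occurred in another transcript. Of the 2 negative copies of glycolytic genes, Gm6992 from Pkm had 15 and 18 against 33 and 17 and Gm4735 from Eno1b had 27 and 20 against 29 and 22.

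Hspa8, the gene of the constitutive heat shock protein of the cytosol, was the source of 8 members. The highest, Gm15459, had 2018 and 1592 normalized counts in mitochondria and 909 and 855 in rest (log2 difference 1.02, SE 0.19, limma adjusted p = 0.0581). Gm8355 had 821 and 658 against 362 and 380, and Gm6210 had 453 and 327 against 195 and 183, with log2 differences of 0.98 and 1.02. The limma test called 0 of the 8, beside 2.16% of all genes tested called higher, with 7 at an unadjusted p under 0.05. Identity of the 8 copies with Hspa8 ran from 91.5% to 99.74%, and their log2 differences from 0.94 to 1.56, beside 0.91 (SE 0.19) for Hspa8. The highest of these, 1.56 in Gm5575, belonged to the shortest copy, of 398 bases, and the other 7 lay between 0.94 and 1.11.

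The group of translation factors held 14 copies, from genes with Eef or Eif symbols and from Tpt1 and Naca. The 13 that were tested (without Gm11400, a copy of Eef2) had a median log2 difference of 0.75 and 1 call. That call was Tpt1-ps3, a copy of Tpt1 and not of an Eef or Eif gene. The 4 copies of Eef1a1, which encodes the factor that brings aminoacyl-tRNA to the ribosome, lay between 0.05 and 0.75, and Eef1a1 at 0.23. Among cytoskeletal genes, the 3 copies of the actin gene Actg1 lay between -0.30 and 0.52, and Actg1 at -0.35. The 11 copies grouped as cytoskeletal had a median of 0.62 with 0 called by limma and 2 at an unadjusted p under 0.05. Grouping was by gene symbol, which also placed Gm9845 here (log2 difference 0.72), a copy of Cflar, which is not a cytoskeletal gene. The 12 copies of genes for chromatin and nuclear proteins had a median of 1.33 with 0 called and 6 at an unadjusted p under 0.05, and their 8 parents 0.71. No member had a parent on the list of ubiquitin and proteasome genes. The 86 copies of other genes had a median of 0.94 with 8 called, and their 81 tested parents 0.49. Beside these counts of calls, 2.16% of all genes tested were called higher.

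**Figure D3:**
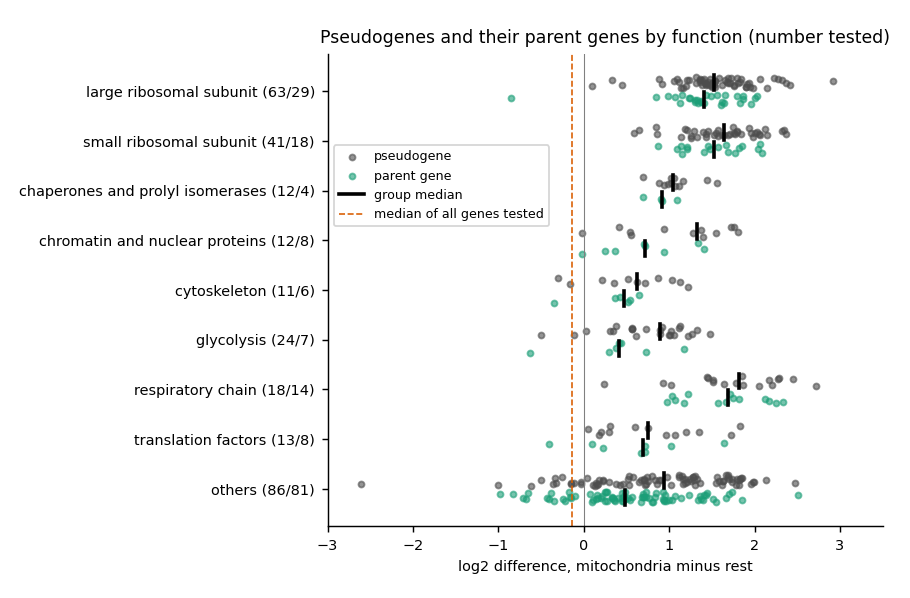
Log2 difference, mitochondria minus rest, of pseudogenes (grey) and of their parent genes (green) by group of the parent. Groups were set by gene symbol, so the cytoskeleton row includes Cflar and the translation factor row includes Tpt1 and Naca. Numbers of tested pseudogenes and parents are in brackets, group medians are black bars, and the median of all genes tested is a dashed line. Copies of ribosomal protein and respiratory chain genes lie furthest to the right, with medians of 1.53, 1.64 and 1.82; all values are on the deposited scaling, and under library totals 0 members are positive.

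A negative log2 difference was found in 20 members. None was called lower (limma), beside 1.39% of all genes tested, with 2 at an unadjusted p under 0.05. These were Vcp-rs, with 170 and 145 normalized counts in mitochondria and 242 and 241 in rest, and Gm30970, with 70 and 51 against 151 and 97. Vcp-rs is a copy of Vcp, an ATPase that unfolds ubiquitinated proteins, and Gm30970 one of Atp2a2, the calcium pump of the sarcoplasmic reticulum. Their log2 differences were -0.62 (SE 0.18) and -1.01 (SE 0.32). Vcp and Atp2a2 themselves had negative values, of -0.38 and -0.83. The most negative member, Gm10557 from Cdh11, had 0 and 28 against 31 and 33. At 0 in mitochondrial replicate 1, where 3 reads would be listed as 11.6, its log2 difference of -2.61 (SE 1.63) rests on that library.

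Gm12895 and Gm12896 stood apart from the other members. Gm12895 had 221 and 43 normalized counts in mitochondria and 679 and 63 in rest, and Gm12896 had 252 and 23 against 678 and 59. The values of replicate 1 were 5.14 and 11 times those of replicate 2 in mitochondria and 10.8 and 11.5 times in rest. The fractions overlapped in both, and the limma adjusted p was 0.62 and 0.59. Of the 75-base windows of each, 98.68% occurred in another transcript.

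The difference of a pseudogene followed that of its parent. Across 276 pairs with both values, the log2 differences of pseudogene and parent had a Spearman correlation of 0.74 and a Pearson correlation of 0.75. This is a description across genes that share libraries, and partly share reads and parents. Within the 101 pairs with a ribosomal parent the Spearman correlation was 0.42, and within the 175 others 0.72. The signs were both positive in 248 pairs and both negative in 13. The pseudogene was positive and the parent negative in 10, and the reverse held in 5. Of the 175 tested parents, 43 were called higher and 0 lower (limma), beside 2.16% and 1.39% of all genes tested. At an unadjusted p under 0.05, 109 parents were higher and 3 lower, and the median of the parents was 0.93. The 47 tested ribosomal protein parents had a median of 1.45 with 27 called, and the 86 ribosomal protein mRNAs tested in all had a median of 1.39 with 42 called.

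**Figure D4:**
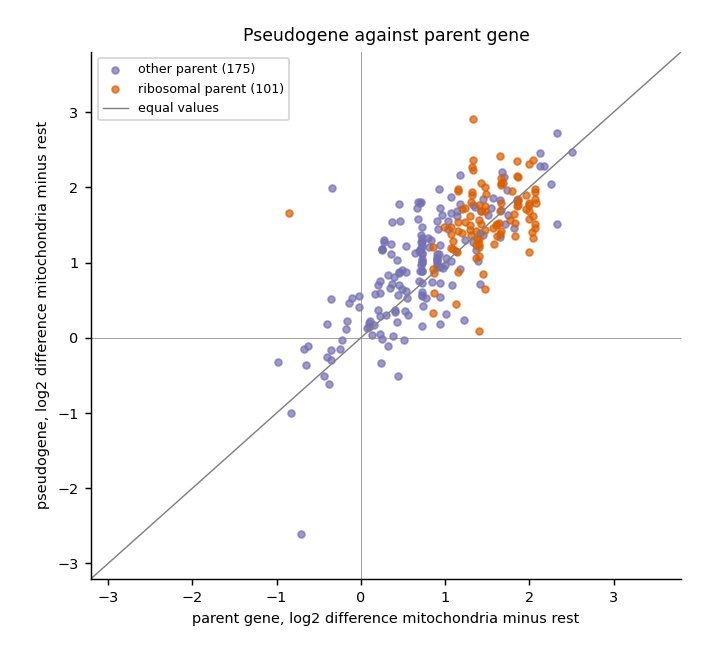
Log2 difference, mitochondria minus rest, of each pseudogene (vertical axis) against that of its parent gene (horizontal axis) for 276 pairs, in orange for ribosomal protein parents, in purple for other parents, with the line of equal values. Both values are positive in 248 of the pairs, at the upper right; both axes use the deposited scaling.

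Apart from the 1 added to each value, the log2 ratio of pseudogene to parent does not depend on the scaling of a library. It changed by a median of 0.16 between mitochondria and rest over 280 members, and by less than 0.5 in either direction in 196. With 10 added in place of 1, the median change was 0.02. The ratio was higher in both mitochondrial libraries than in both rest libraries in 94 members, lower in 26 and overlapping in 160. It rose by more than 1 in 16 and fell by more than 1 in 2. In 3 of the 16 the ribosomal protein parent was itself listed at no more than 14 normalized counts in any library. Rps10-ps2 had 77 and 48 normalized counts in mitochondria and 13 and 10 in rest, where Rps10 was listed at 0 and 3 against 5 and 3. Gm11478 had 89 and 92 against 20 and 39, where Rpl13a was listed at 4 and 10 against 14 and 11. Gm9385 had 23 and 38 against 7 and 13, where Rpl24 was listed at 0 and 8 against 3 and 4. These parents share sequence with their copies, so that their listed values are uncertain, and the part of the reads with several matches, which the authors left out, was not tested. Another of the 16 was Gm6505, a copy of Yae1d1. Gm6505 had 66 and 59 against 13 and 17 (log2 difference 2.0, SE 0.30, limma adjusted p = 0.0484), while Yae1d1 had 70 and 79 against 89 and 101. Gm6278 was the copy of Rplp0 whose ratio fell, with 19 and 36 against 24 and 25, where Rplp0 had 926 and 778 against 332 and 309.

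Per kilobase of exon, the median level of a pseudogene was 70.7% and 69.1% of that of its parent in mitochondria and 60.7% and 62.8% in rest. The length of a parent was that of all its annotated exons merged. This can exceed the length of its mRNA, so these shares may be too high. Only 12 of the 280 members had a higher mean normalized count than their parent, among them 3 of the 6 copies of Rpl23a. The Spearman correlation of the log2 difference with the share of windows found elsewhere was -0.02 over 284 members. The differences of copies followed those of parents, so this correlation cannot show whether reads of parents were counted on copies. The part of such reads was not tested. The median log2 difference was 1.47 in the 36 members with every window shared (6 called) and 1.21 in the 140 with 50% to under 100% (15 called). It was 1.23 in those under 50% (11 called of 108 tested), beside 2.16% of all genes tested called higher. Gm2830, a copy of Rps24 with 0% of its windows shared, had 70 and 82 normalized counts in mitochondria and 16 and 22 in rest (log2 difference 1.96, SE 0.30, limma adjusted p = 0.0487).

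Short copies had larger differences than long ones, and so did short protein-coding genes. The Spearman correlation between the log2 difference and exon length was -0.52 over 284 members, which share libraries and parents. The median was 1.69 in 89 members of up to 500 bases, 1.36 in 110 of 501 to 1000 bases and 0.73 in 85 longer ones. In the last class limma called 0, beside 2.16% of all genes tested called higher, with 30 higher and 1 lower at an unadjusted p under 0.05. Protein-coding genes in these classes had medians of 2.04 (16 genes), 1.46 (153 genes) and -0.15 (10455 genes). Length was that of all annotated exons of a gene merged. A short mRNA of a gene with longer annotated transcripts can therefore stand in a longer class. Length and parent go together, since 46 of the 89 shortest members but 3 of the 85 longest had a ribosomal parent. At up to 500 bases, copies with a ribosomal parent had a median of 1.73 (46 members) and copies of other genes 1.68 (40 members). At 501 to 1000 bases these medians were 1.48 (55 members) and 0.93 (54 members). The fragmentation time of the RNA differed between the fractions, and its part in this relation was not tested.

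**Figure D5:**
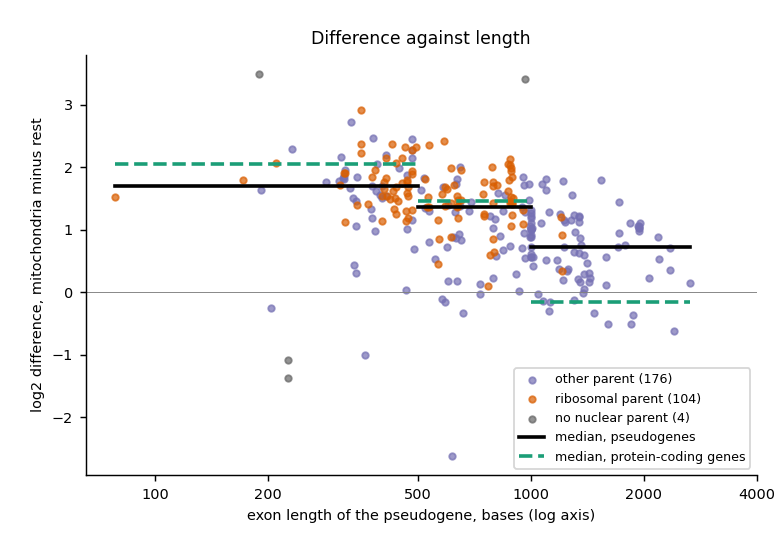
Log2 difference, mitochondria minus rest, of each pseudogene against its exon length in bases (log axis), coloured by parent, with the medians of pseudogenes (black) and of protein-coding genes (green, dashed) in 3 classes of length. Length is that of all annotated exons of a gene merged. The medians of pseudogenes step down from 1.69 to 1.36 and 0.73 on the deposited scaling; under library totals 0 members are positive.

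By position, 191 members lay outside any annotated gene, 50 opposite to a gene, 38 inside a gene of the same strand and 6 over an exon of one. Their median log2 differences were 1.23, 1.36, 1.43 (over the 37 of 38 that were tested) and 0.57. The numbers called higher were 23, 4, 5 and 0, beside 2.16% of all genes tested. Of the last 6, 2 were at an unadjusted p under 0.05. Whether the authors counted reads by strand is not stated for these values, so reads of a pseudogene and of a gene across from it may not be separated. The 5 called members inside a gene were Rps3a3 in Pde4d, Ndufs5-ps in Zbtb20, Ndufb4c in Mroh5, Gm6505 in 1700112D23Rik and Pdcd5-ps in Kcnk2. Pdcd5-ps had 43 and 38 normalized counts in mitochondria and 6 and 7 in rest (log2 difference 2.47, SE 0.36, limma adjusted p = 0.0469), and Pdcd5 had 2.5 (SE 0.21). Other kinds of pseudogene with the same mean limit had a similar or higher median, 1.24 in 19 transcribed processed and 1.77 in 22 unprocessed ones. The unprocessed ones were spread more widely, with quartiles of -0.33 and 3.20 and 6 of 22 negative. The members had quartiles of 0.73 and 1.71 and 20 of 284 negative. The 94 lncRNAs above that limit had a median of -0.91. The difference between these biotypes was not tested.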

How the data were processed

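RNA-seq of 2 mitochondrial and 2 rest libraries of mouse heart was analysed. Per the labels and methods, the authors trimmed reads with Trimmomatic, aligned them to GRCm38 with STAR, counted reads on exons with featureCounts, leaving out reads that matched several genes or places, and scaled with DESeq2. The deposited values are whole-number scores: counts divided by a size factor and rounded by the authors, so no count test was run, and the test planned for counts was replaced. Values plus 1 were taken to log2 and tested with limma 3.58.1 (R 4.3.3; empirical Bayes with trend) in the 12150 genes with at least 10 in at least 2 libraries, with Benjamini-Hochberg adjustment over them. The scripts were tested on simulated data. Parents were the best blastn 2.17.0 match among protein-coding transcripts of GENCODE M21, at 80% identity over 50% of the pseudogene. Reads per value came from the spacing of values and cover counting error only; on simulated data this estimate missed in a few runs with values like those of the rest libraries, so reads there are approximate. Named members are all Rpl or Rps copies and, of the others, the 10 highest, the 5 largest and 5 most negative called differences (none was negative), those nearest the mean limit, and their parents; further members were named after their values were seen. Members and lists were chosen with earlier results of these data known. The alternatives were other pseudocounts, filters, scalings, the replicate block, libraries left out, the member limit and the rule for parents.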

Additional observations from a re-analysis of the deposited data

How the results depend on the processing

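Counts of calls moved with the settings, and the direction of the set as a whole moved with the scaling. Called higher in the main setting were 262 genes in all, 7 pseudogenes named Rpl or Rps, 25 others and 43 parents, and 169 genes in all were called lower. With a pseudocount of 0.5 the table had 171 higher and 85 lower, with 1 named and 14 other pseudogenes. With 10 it had 536 and 580, with 20, 56 and 67 parents, and the median of named pseudogenes relative to the median gene was 1.38 in place of 1.74. Without a filter 630 genes were lower. With a mean of at least 50 there were 793 higher and 670 lower, with 13, 51 and 92 parents, and 90 of the 98 members tested were positive. Scaled by the trimmed mean of M-values there were 443 higher and 316 lower, with 18 named and 48 others. Scaled to the total without the mitochondrial chromosome there were 129 higher and 3819 lower, with 14 others and 15 parents higher and 7 members lower. Scaled to the library total there were 2 higher and 12022 lower, with 0 named, 0 others and 0 parents higher, 0 members positive and 270 members lower. With a member limit of 50 instead of 20, 4 named pseudogenes were called. Grouped by parent, an alternative chosen after seeing the data, 15 with a ribosomal parent and 15 others were called.

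The labels give both fractions the replicate numbers 1 and 2 but do not say that a number marks the same animals, and the differences between replicates correlated only weakly between fractions (Pearson r = 0.13 across 12150 genes). With the replicate block, 470 genes were higher and 309 lower, with 12 named pseudogenes, 46 others and 67 parents higher and 1 member lower.

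With 1 library left out, the lone library of a fraction is assumed to vary like the other fraction, and 0 genes were called in either direction (limma). Between 254 and 265 members were still positive. Relative to the median gene, the median ranged from 1.57 to 1.87 for named pseudogenes, from 1.06 to 1.38 for others and from 0.85 to 1.16 for parents, and the pseudogene to parent ratio changed by 0.16 to 0.23. Relative to the median gene, 5 named members changed sign: Rpl3-ps2 ranged from -0.33 to 1.28, Rpl18-ps2 from -0.32 to 1.39, Gm12896 from -3.01 to 0.52, Gm12895 from -2.64 to 0.77 and Atp6v0c-ps2 from -0.23 to 0.48. Depth limits the mitochondrial values most, since 3 reads are listed there as 11.6 or 7.65.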
